A study of Micropterus salmoides with 6 samples.

Results

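Long non-coding RNA (lncRNA) transcripts that lie over an annotated gene on the same strand were measured in the intestine of largemouth bass (Micropterus salmoides) kept at 34 °C or 26 °C. A transcript was taken when its deposited position shared at least 1 base with an annotated gene on the same scaffold and strand and when its counts summed to at least 60 over the 6 libraries. This held for 1070 of the 3399 lncRNA transcripts of the deposited table. Without the count minimum, 1811 transcripts lay over a gene on its strand. Of all 1920 lncRNA transcripts with at least 60 counts, 229 lay over genes on the opposite strand only and 621 lay over no annotated gene. The count minimum cut through a dense range, with 72 of the chosen transcripts at 60 to 69 counts and 76 further sense transcripts at 50 to 59 counts.

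The heat group was held at 34 °C and the control group at 26 °C, and both were sampled after 9 h, per the labels. Each group has 3 libraries of total RNA, and each library pooled intestine from 3 fish of 1 rearing parallel. The spread between libraries is therefore a spread between pools and not between single fish. In such bulk tissue, fewer cells of a type and less RNA per cell cannot be told apart.

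An lncRNA is an RNA of some length with no recognised protein product, made and often spliced like a messenger RNA. A transcript assembled on the same strand as a gene can be an RNA with a promoter of its own inside the gene, an isoform of the gene that reads through or keeps an intron, or a piece of the gene's own precursor RNA, and short-read counts do not separate these forms. The gene that shared the most bases with a transcript on its strand is called its host here, and each transcript is set beside its host below. For 17 transcripts the longest overlap was tied between genes, and the first of these by name was taken as the host.

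Total counts per library ranged from 8244328 to 28822509. Heat replicate 1 was the shallowest library, and the sense-overlapping transcripts took 9.32% of its counts, against 3.02% and 4.35% in heat replicates 2 and 3 and 2.08%, 3.74% and 4.62% in control replicates 1, 2 and 3. Control replicate 1 was the deepest library and stood apart in the enterocyte markers: of 10 enterocyte symbols 2 were found, and their summed level was 304, 465 and 428 CPM (counts scaled to library size) in the heat libraries and 1001, 261 and 219 CPM in the control libraries. Of 10 smooth muscle symbols 6 were found, at 4524, 4507 and 3969 CPM in heat and 11372, 5082 and 10499 CPM in control, where replicates 1 and 3 were high and replicate 2 was near the heat libraries. The 1 T cell marker found, of 3 symbols, stood at 3.77, 4.34 and 6.09 CPM in heat and 16.8, 4.26 and 5.35 CPM in control. The 3 skeletal muscle markers found were at or near 0 in all libraries. Values without either library are given where they turn a result, and the part of tissue make-up in the results below was not tested.

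The 1070 transcripts came from 839 assembled genes and lay over 728 hosts. Most, 766 (71.6%), lay wholly within their host. A further 146 (13.6%) spanned the whole host, 89 (8.32%) ran past its 3′ end and 69 (6.45%) past its 5′ end. Transcripts within a host began at a median of 33.7% of the host's length from its 5′ end, with quartiles at 9.41% and 58.0%. RefSeq lists the host of 1027 transcripts as protein-coding. Antigen receptor segments (C_region 15, V_segment 5) hosted 20, annotated lncRNA genes 8 and ribosomal RNA genes 4. The hosts of 11 transcripts were not matched, and 10 of these transcripts lay over trnai-aau_6, an isoleucine tRNA gene of 74 bases.

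Many transcripts shared a host or had several. A single host was found for 884 (82.6%), while 45 lay over at least 5 genes and the highest number was 16. Conversely, 171 hosts carried at least 2 transcripts, 513 in all, and 22 hosts carried at least 5. Transcripts of 1 host can share exons and reads, so they are not independent measurements. A further 215 transcripts also lay over a gene on the opposite strand. The strand setting of the authors' counting was not given in the sources used here, so reads of these opposite genes cannot be told apart from theirs.

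The form of the transcripts differed by position. The exon length behind each count was estimated from the ratio of count to TPM (transcript abundance scaled by length and depth) for 666 transcripts. These were 441 of 766 within a host, 118 of 146 containing it, 60 of 89 past its 3′ end and 47 of 69 past its 5′ end. The spans below cover all transcripts, and the exon lengths and shares only these. Transcripts within a host were short, with a median span of 2335 bases, and the median share of span in exons was 73.0%. Those that contained their host spanned a median of 66860 bases, with exons over 1.99%. Those past the 3′ end and past the 5′ end spanned 36312 and 23595 bases, with exons over 3.15% and 4.83%. Median exon length lay between 981 and 1417 bases in all 4 positions, so the long spans were nearly all intron.

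Per length, the transcripts were less abundant than their hosts. Median TPM was 4.44 for transcripts within a host against 27.7 for those hosts, 5.14 against 24.7 for transcripts past the 3′ end and 4.67 against 18.1 for those past the 5′ end. Transcripts that contained their host were at 8.11 TPM against 7.59 TPM. These medians count a host once for each of its transcripts, and si:zfos-1056e6.1, listed at 0 in every library, hosted 17 transcripts. In the 92 such pairs with enough counts to test both, median level was 4.56 CPM for transcripts and 16.1 CPM for hosts, not scaled by length. Over all positions, 204 transcripts (19.1%) had a mean TPM above that of their host, and 760 were below their host in each of the 6 libraries. The host of 30 transcripts was listed at 0 in every library.

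The transcripts also varied more between replicates than their hosts did. The median standard deviation of log2(CPM + 0.5) was 0.50 in heat and 0.79 in control for the transcripts, and 0.23 in heat and 0.45 in control for their hosts. For lncRNA transcripts with no sense overlap it was 0.58 in heat and 0.83 in control. The lower level of the transcripts moves with this spread, and its part was not tested.

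At 34 °C against 26 °C, 957 of the 1070 transcripts passed the count filter and were tested, and 113 did not pass. No transcript passed the threshold (0 of 957, edgeR's quasi-likelihood test with Benjamini-Hochberg adjustment at 0.05), beside a background of 0.0% of all 1734 lncRNA transcripts tested, and the smallest adjusted p was 0.111. At an unadjusted p under 0.05 there were 118 transcripts (12.3%, background 14.5%). Of these, 85 were higher in heat (8.88%), against a background of 9.57% of the lncRNA transcripts, and 33 were lower (3.45%), against 4.9%. DESeq2 called 52 transcripts (5.43%), 41 higher and 11 lower in heat, against a background of 7.21% called and 4.96% called higher. These shares lay close to or under those of all lncRNA transcripts.

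Of the tested transcripts, 118 had every heat library above every control library (12.3%, background 13.3%) and 30 had every heat library below (3.13%, background 4.44%). The log2 fold change was above 0 for 560 transcripts and below 0 for 397, with a median of 0.19, beside 0.18 over all lncRNA transcripts tested and -0.12 over all genes tested. Without control replicate 1, edgeR called 18 of 1025 tested transcripts, 9 in each direction (1.76%, background 2.16% called and 0.624% called higher).

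Of 695 hosts tested, 6 passed the edgeR threshold, or 0.863%, beside a background of 0.984% of 20326 genes. In heat, smox and ccnd2a rose, while cry1b, LOC119900968 (cytochrome P450 2J1-like), LOC119918082 (trypsin-like) and LOC119896559 (tryptase-like) fell. None of these 6 calls held under each omission of 1 library: without control replicate 1 the count of called hosts was 78 of 698 (11.2%, against 8.71% of genes), and without any other single library it was 0. DESeq2 called 53 hosts (7.63%, against 7.07% of genes).

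Among transcripts of called hosts the highest log2 fold change was at smox, the gene of spermine oxidase, an enzyme that breaks down the polyamine spermine. MSTRG.6754.2 lies within smox on NW_024040263.1, from 10442922 to 10445464 on the minus strand, with exons over 98.5% of its span, and starts close to the host's 5′ end. It stood at 5.59, 8.50 and 3.14 CPM in the heat libraries and at 0.343, 0.322 and 0 CPM in the control libraries. The control libraries held 8, 5 and 0 counts of it and all lay below the heat libraries. Its log2 fold change was 4.54 ± 0.80 (SE, n = 3 each), with an edgeR adjusted p of 0.112. The host itself stood at 41.6, 66.8 and 19.8 CPM in heat and at 4.46, 4.13 and 5.44 CPM in control, and rose by a log2 fold change of 3.19 (edgeR adjusted p = 0.0322). Transcript and host differed in change by 1.59 ± 1.03 (SE), an edgeR unadjusted p of 0.167. Here and below, such differences come from a paired fit of transcript and host counts. They need not equal the gap between the separate log2 fold changes.

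Cyclin D2, a regulator of entry into the cell cycle, is encoded by ccnd2a (NW_024044570.1, 28719297 to 28887110). The gene stood at 241, 197 and 204 CPM in heat and at 55.4, 79.2 and 73.1 CPM in control, a log2 fold change of 1.63 with an edgeR adjusted p of 0.0445. It hosted 7 transcripts from 5 assembled genes, all within the gene. Of the 7 transcripts, 5 had every heat library above every control library (background 13.3% of all lncRNA transcripts tested). They were named because ccnd2a was called, and they can share reads with it and with one another. They are therefore not separate evidence of a rise. The most abundant, MSTRG.39021.5 (28741408 to 28747273), stood at 40.3, 38.1 and 38.3 CPM in heat and at 9.83, 13.4 and 17.2 CPM in control. The heat libraries lay within a narrow range well above the control libraries. Its log2 fold change was 1.53 ± 0.27 (SE), edgeR adjusted p = 0.112, and it differed from that of ccnd2a by -0.07 ± 0.47 (SE).

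Of the other ccnd2a transcripts, MSTRG.39022.1, MSTRG.39023.2 and MSTRG.39024.1, whose exons take 94.6% to 99.8% of their span, had log2 fold changes of 1.52 ± 0.50, 1.62 ± 1.04 and 1.59 ± 0.57 (SE). MSTRG.39020.6 and MSTRG.39023.1, spread over 103493 and 73268 bases with exons over 0.577% and 1.53%, had 0.73 ± 0.78 and 0.73 ± 0.50 (SE), and their groups overlapped. With 1 library left out, MSTRG.39020.6 ranged from 0.33 to 1.77 and MSTRG.39023.2 from 1.03 to 2.51. MSTRG.39020.15 had 1.21 ± 0.53 (SE). Differences among these transcripts were not tested. None of the 7 differed from ccnd2a at an unadjusted p under 0.05 (edgeR; lowest 0.152).

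A group of transcripts with higher values in heat lay within LOC119891615 (NW_024044459.1, 37060887 to 37149127). It is annotated as chromaffin granule amine transporter, a carrier that loads monoamines into secretory vesicles of endocrine cells. The host was chosen after its values were seen. Of its transcripts, only MSTRG.37320.1 and MSTRG.37324.1 are among the 10 with the smallest p at a mean of at least 1 CPM. LOC119891615 hosted 12 transcripts from 6 assembled genes, which began between 5.49 and 64.9 kb from its 5′ end. Their summed level was 155.6, 53.8 and 68.9 CPM in heat and 1.16, 16.6 and 5.85 CPM in control. The groups did not overlap, and control replicate 1 was the lowest library. All 12 had log2 fold changes between 2.97 and 4.93, with edgeR adjusted p from 0.112 to 0.241. Of the 12, 11 had every heat library above every control library (background 13.3% of all lncRNA transcripts tested). The host was chosen by its values and its transcripts can share reads, so these are not separate calls. Several had few control counts. MSTRG.37321.5, with the log2 fold change of 4.93, had 0, 4 and 0 in control and 28, 30 and 45 in heat. It passed the count filter through the heat libraries alone. MSTRG.37319.3 had 1, 8 and 1 in control, and MSTRG.37319.1 had 0, 58 and 15. DESeq2 called 11 of the 12 (background 7.21%). It also called each of the 10 transcripts with the smallest edgeR p at a mean of at least 1 CPM, which were picked by that p. A DESeq2 call was therefore not particular to this host.

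MSTRG.37324.1 (37125744 to 37132043) stood at 15.8, 3.98 and 9.43 CPM in heat and at 0.0858, 1.1 and 0.494 CPM in control, a log2 fold change of 4.15 ± 0.86 (SE). MSTRG.37320.1 (37068374 to 37084432) stood at 8.18, 3.57 and 3.53 CPM in heat and at 0.129, 0.774 and 0.247 CPM in control, a log2 fold change of 3.72 ± 0.74 (SE). In each, every heat library was above every control library. LOC119891615 itself was low, at 2.34, 4.70 and 3.40 CPM in heat and 1.33, 1.23 and 1.15 CPM in control, a log2 fold change of 1.49 ± 0.44 (SE) with an edgeR adjusted p of 0.152. Per length the transcripts, at mean TPM of 2.80 to 10.6, were all above this host, at 1.95 TPM.

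In the paired fit, the transcripts' changes exceeded that of LOC119891615 by 1.84 to 3.89 on the log2 scale. No difference passed the adjusted threshold (lowest edgeR adjusted p of the difference 0.801, lowest unadjusted p 0.0324). Without control replicate 1 their log2 fold changes were 2.36 to 4.23 and edgeR called 1 of the 12 (background 2.16%). All 12 were above 0 whichever library was left out (2.23 to 8.38). The 8.38 belonged to MSTRG.37321.5, the transcript with 0 counts in control replicates 1 and 3. The transcripts overlap one another in part, so the 12 values repeat some of the same reads.

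**Figure D1:**
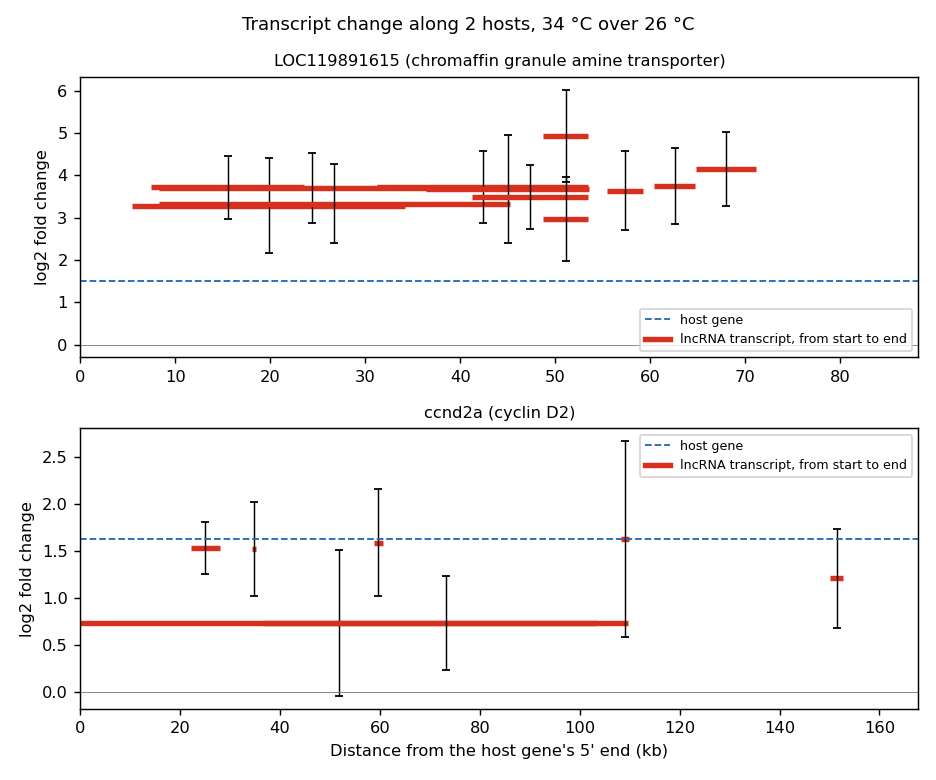
Log2 fold change at 34 °C over 26 °C (vertical axis) of each tested transcript within LOC119891615 (upper panel) and ccnd2a (lower panel), drawn as a red bar from its start to its end in kb from the host's 5′ end, with its SE as a black line. The 12 transcripts of LOC119891615, a host chosen after its values were seen, lie between 2.97 and 4.93, above the dashed line of their host at 1.49. The 7 of ccnd2a lie between 0.73 and 1.62, at or below their host at 1.63.

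Other transcripts with the smallest p and a mean of at least 1 CPM sat on hosts that differed in how much they changed. OSGIN1, encoded by osgn1, is a growth inhibitor induced by oxidative stress in mammals. MSTRG.30568.3, within osgn1, stood at 4.68, 4.16 and 4.30 CPM in heat and at 0.772, 1.1 and 1.40 CPM in control. The host stood at 45.5, 80.6 and 62.3 CPM in heat and at 19.0, 22.8 and 23.6 CPM in control. In both the groups did not overlap, and the log2 fold changes were 2.01 for the transcript and 1.53 for the host (edgeR adjusted p of 0.112 and 0.0525).

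Over an NLRC3-like gene, LOC119909378, of the NLR family of innate immune sensors, lies MSTRG.19742.9, which runs past the host's 5′ end. It stood at 25.3, 7.26 and 8.66 CPM in heat and at 1.46, 2.0 and 2.39 CPM in control, while the host stood at 132, 83.7 and 122 CPM in heat and at 20.7, 32.5 and 48.0 CPM in control. Heat libraries lay above control libraries in both, with log2 fold changes of 2.81 and 1.74. MSTRG.36298.5, within si:dkey-21e5.1, stood at 4.94, 1.90 and 3.14 CPM in heat and at 0.343, 0.451 and 0.494 CPM in control, a log2 fold change of 2.93, beside 0.83 for its host.

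The next 2 hosts had log2 fold changes near 0. FOXP1, encoded by foxp1b, is a forkhead transcription factor. MSTRG.31869.11 lies within foxp1b (NW_024043372.1, 33322715 to 33382641), with exons over 1.21% of its span, and had the smallest p of all the transcripts. It stood at 7.92, 7.37 and 6.54 CPM in heat and at 0.858, 1.68 and 0.988 CPM in control, with the heat libraries close together and far above. Its log2 fold change was 2.63 ± 0.40 (SE), edgeR adjusted p = 0.111. The host stood at 118, 179 and 194 CPM in heat and at 133, 140 and 187 CPM in control, overlapping groups with a log2 fold change of 0.10 ± 0.30 (SE). The difference between them was 2.59 ± 0.59 (SE), with an edgeR unadjusted p of 0.00304 and an adjusted p of 0.580.

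MSTRG.36123.1 spans 475308 bases and 11 genes on NW_024044459.1, with exons over 0.369% of its span, and shares the most bases with sh2d3cb, which encodes an SH2 domain adaptor protein. It stood at 1.43, 0.773 and 0.577 CPM in heat and at 4.08, 14.6 and 6.84 CPM in control, all heat libraries below all control libraries. Its log2 fold change was -3.24 ± 0.61 (SE), edgeR adjusted p = 0.112, beside -0.14 for sh2d3cb, which stood between 37.5 and 45.0 CPM in all 6 libraries. The difference had an edgeR unadjusted p of 0.00500 and an adjusted p of 0.580.

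**Figure D2:**
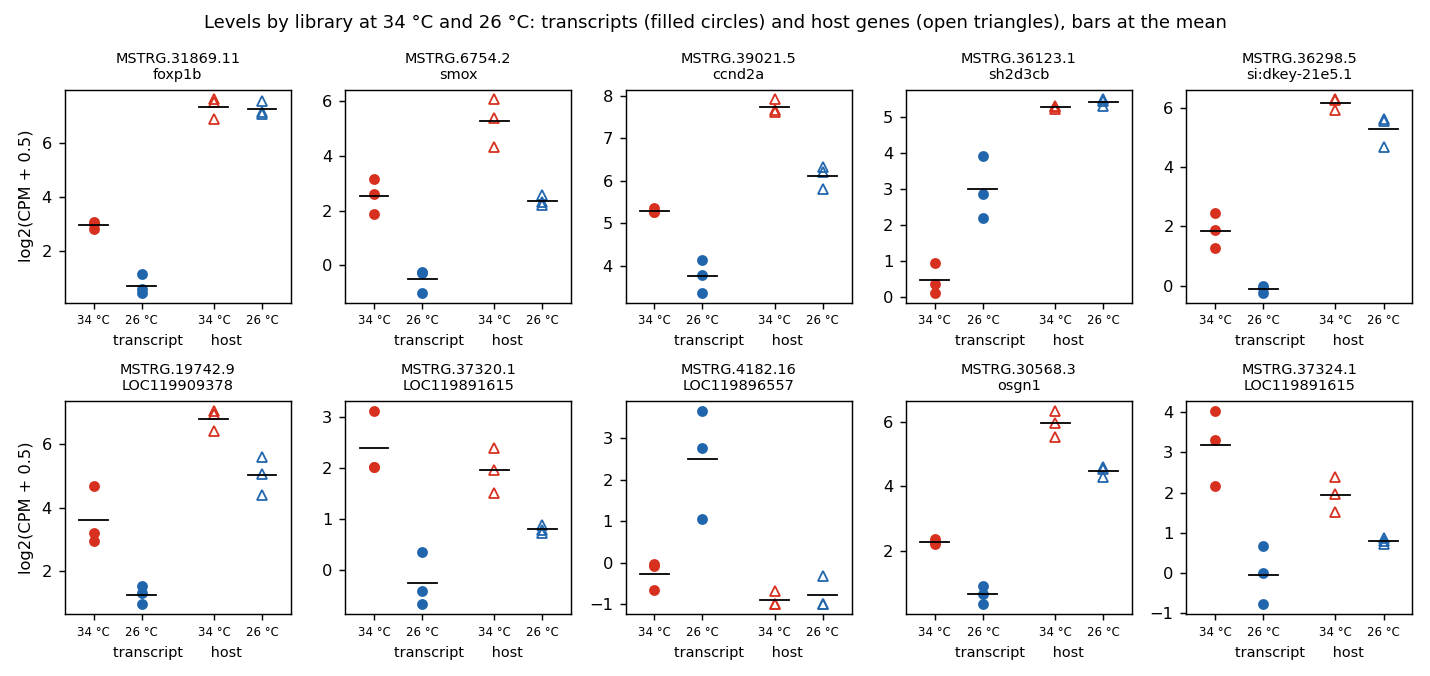
Level of each library as log2(CPM + 0.5) (vertical axis) at 34 °C (red, left of each pair) and 26 °C (blue, right of each pair) for the 10 transcripts with the smallest p and a mean of at least 1 CPM (filled circles) and their hosts (open triangles), with bars at the mean of 3 libraries. In all 10 transcripts the 34 °C and 26 °C points do not overlap, whereas the hosts foxp1b and sh2d3cb show overlapping or nearly equal groups. LOC119896557 is 1 of the 2 genes tied as host of MSTRG.4182.16.

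A cluster of protease genes on NW_024040041.1 carried 4 transcripts with log2 fold changes below 0. LOC119918082 (trypsin-like) stood at 2.99, 5.17 and 6.41 CPM in heat and at 84.0, 47.9 and 26.3 CPM in control. MSTRG.4182.11, which contains it, stood at 1.43, 0.297 and 1.09 CPM in heat and at 3.30, 7.41 and 4.69 CPM in control. The groups did not overlap in either, and the log2 fold changes were -3.42 for the gene (edgeR adjusted p = 0.0325) and -2.50 for the transcript (adjusted p = 0.127).

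LOC119896559 (tryptase-like) fell by 3.05 on the log2 scale (edgeR adjusted p = 0.0358). MSTRG.4182.15, past its 5′ end, had a log2 fold change of -3.52, and MSTRG.4182.19, within it, one of -2.03 with overlapping groups. MSTRG.4182.16 lies wholly within both LOC119918082 and the overlapping LOC119896557, the 2 genes tied as its host. It stood at 0.130, 0.476 and 0.449 CPM in heat and at 1.59, 12.2 and 6.34 CPM in control, a log2 fold change of -4.12 with an edgeR adjusted p of 0.112. The library with the least of it in control was replicate 1. LOC119896557 stood at 0.300 CPM or less in each library, whereas LOC119918082 had the values given above. The 4 transcripts belong to 1 assembled gene, and 2 exocrine pancreas markers found by symbol summed to 36.9, 56.3 and 33.7 CPM in heat and 48.0, 29.6 and 116 CPM in control; their part in these values was not tested.

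At the other called hosts the transcripts had log2 fold changes near 0, with a large error for MSTRG.9177.25. The circadian repressor gene cry1b stood at 2.08, 5.0 and 2.95 CPM in heat and at 31.9, 20.6 and 24.5 CPM in control, and fell by 2.92 on the log2 scale (edgeR adjusted p = 0.0275). MSTRG.38949.1 contains cry1b and 5 other genes over 362781 bases. It stood at 2.21, 1.61 and 1.67 CPM in heat and at 1.42, 2.90 and 1.56 CPM in control. Its log2 fold change was -0.11 ± 0.49 (SE), with overlapping groups. The difference was 2.95 ± 0.81 (SE), edgeR unadjusted p = 0.00828 and adjusted p = 0.650. LOC119900968, of the cytochrome P450 family, fell by 2.01 (edgeR adjusted p = 0.0259), at 9.61, 15.2 and 15.4 CPM in heat and 53.8, 53.5 and 54.8 CPM in control. MSTRG.9177.25, which contains it, stood at 0, 0.952 and 1.54 CPM in heat and at 1.33, 0.129 and 1.15 CPM in control, with groups that overlapped. Its log2 fold change was -0.0029 ± 1.27 (SE). The difference from its host was 1.87 ± 1.39 (SE), with an edgeR unadjusted p of 0.219. With errors of this size, whether MSTRG.9177.25 followed its host cannot be told.

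Transcript and host could be compared directly in 914 pairs over 650 hosts. No pair differed in change past the threshold (0 of 914, edgeR test of the feature-by-temperature term, adjusted over 1260 sense and antisense pairs), beside a background of 0.0%, and the smallest adjusted p was 0.450. At an unadjusted p under 0.05 there were 37 pairs (4.05%), beside a background of 6.03%, with the transcript above the host in 24. The median SE of the difference was 0.81 on the log2 scale.

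The smallest p of these, named here after its values were seen, belonged to a pair of opposite direction. MSTRG.2117.2 spans 5 genes over 187745 bases and shares the most with LOC119886473, an NLRP1-like gene of the inflammasome sensor family. It stood at 67.2, 69.5 and 60.1 CPM in heat and at 12, 32.8 and 29.2 CPM in control, while the host stood at 1.56, 3.93 and 1.99 CPM in heat and at 6.74, 17.9 and 11.9 CPM in control. Groups did not overlap in either, one being high and the other low in heat. The log2 fold changes were 1.41 and -2.26, and the difference 3.81 ± 0.60 (SE) had an edgeR unadjusted p of 0.000357.

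Over all 914 pairs, transcript and host had log2 fold changes of the same sign in 589 (64.4%), both above 0 in 340 and both below 0 in 249. Across pairs, Pearson's r was 0.41 and Spearman's rho 0.42. The points share libraries, scaling and in many cases a host, so these are descriptions. With 1 transcript a host, the most abundant, r was 0.44 over 650 pairs. For 153 pairs of a transcript with a gene on the opposite strand only, r was 0.20 and 81 (52.9%) had the same sign. The genes of these pairs were lower, at a median of 20.1 CPM against 52.6 CPM for the hosts of the sense pairs. Median transcript level was 2.52 CPM against 2.62 CPM. The part of level in the gap between sense and opposite-strand pairs was not tested.

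By position, r was 0.52 and rho 0.44 for transcripts within their host, with the same sign in 454 of 694 (65.4%). Past the 5′ end r was 0.55 and rho 0.51, with 35 of 56 (62.5%). Past the 3′ end r was 0.19 and rho 0.38 (44 of 72, 61.1%), and for transcripts that contained their host r was 0.16 and rho 0.23 (56 of 92, 60.9%). The positions were close in the share of the same sign, and a difference between them was not tested. Leaving out 1 library at a time gave r of 0.21 to 0.40 over all pairs, below the value with all 6 libraries in each case. Spearman's rho was 0.33 to 0.42, beside 0.42 with all 6. The count filter then passed 961 to 980 pairs rather than 914, so the set of pairs also differed.

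**Figure D3:**
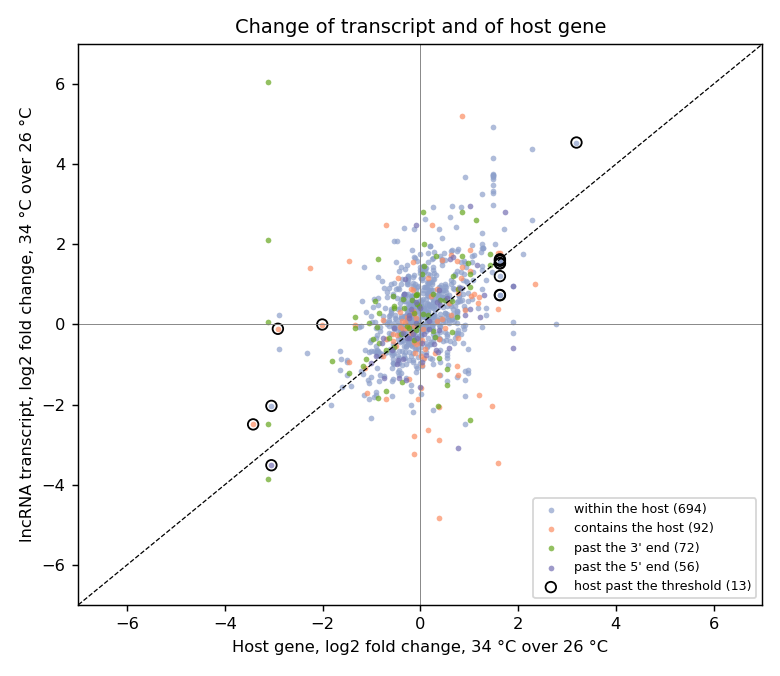
Log2 fold change at 34 °C over 26 °C of the host gene (horizontal axis) and of the transcript (vertical axis) for 914 pairs, coloured by position, with equal change on the dashed line and hosts past the edgeR threshold ringed. Ringed pairs at the upper right belong to ccnd2a and smox and those at the lower left to the protease genes. Those of cry1b and LOC119900968 sit near 0 for the transcript, with SEs of 0.49 and 1.27.

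Among transcripts within their host, r was highest for those that were nearly all exon. The bins were chosen after the values were seen. They hold only pairs whose transcript had an estimated exon length, so they do not make up all 694 pairs within a host. Where exons took 90% to 100% of the span, r was 0.75 and 121 of 154 pairs (78.6%) had the same sign, and where they took at least 98%, r was 0.85 and 49 of 60 (81.7%) had it. In the bins of 0 to 10%, 10 to 50% and 50 to 90%, r was 0.41, 0.66 and 0.35, in no steady order, over 62, 98 and 95 pairs. Median transcript level moved with the bins, at 3.56, 3.69, 4.2 and 4.86 CPM from the lowest to the highest. Median host level was 59.7, 53.8, 55.7 and 85.9 CPM in the same order. The part of either level was not tested. Without any 1 library, r in the highest bin was 0.55 to 0.71 and rho 0.60 to 0.68, over 155 to 157 pairs. With all libraries rho there was 0.68. An unspliced transcript within a gene and the gene itself could hold the same reads, and whether they do was not tested, since host exon positions were not used here.

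**Figure D4:**
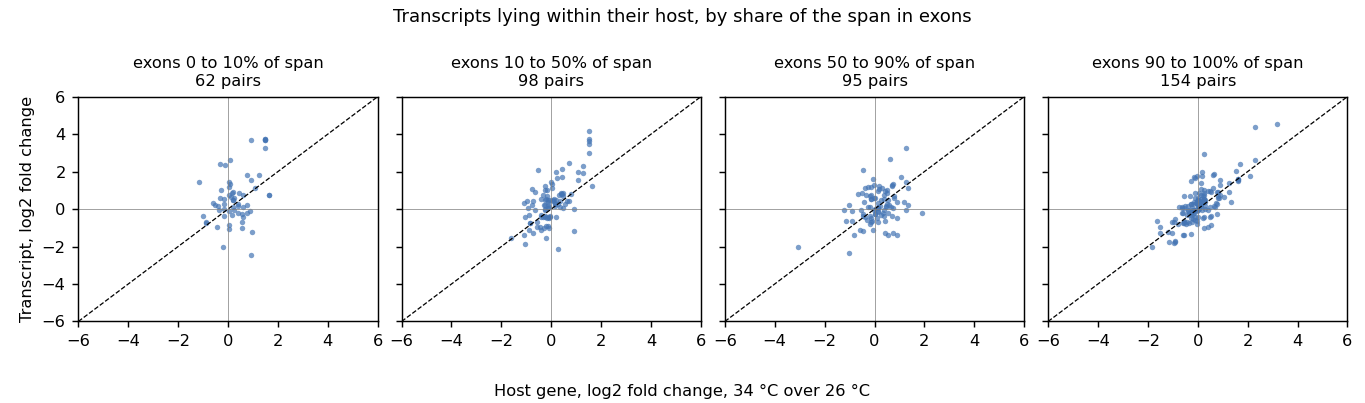
Log2 fold change at 34 °C over 26 °C of host (horizontal axis) and transcript (vertical axis) for transcripts lying within their host, in 4 panels by the share of the span in exons, with equal change on the dashed line. Only transcripts with an estimated exon length are drawn. The right panel, with 154 pairs, has the highest r of the 4, at 0.75.

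rapgef6, which encodes an exchange factor for Rap GTPases, carries an example of a nearly all-exon transcript with a small error, chosen after its values were seen. MSTRG.40265.2 lies within it (NW_024044681.1, 16006443 to 16015488), with exons over 98.9% of its span. It stood at 59.8, 54.1 and 49.5 CPM in heat and at 25.6, 29.3 and 21.3 CPM in control, and the host at 297, 321 and 273 CPM in heat and at 142, 235 and 202 CPM in control. Heat libraries were above control libraries in both, with log2 fold changes of 1.1 ± 0.23 and 0.62 ± 0.30 (SE).

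Among the 22 hosts with at least 5 transcripts, the tested transcripts were all above 0 at 6 hosts, all below 0 at 1 and on both sides of 0 at 15. The 6 were LOC119891615, ccnd2a, nav2a, znf609a, LOC119905516 and LOC119909370. Their lowest log2 fold changes were 2.97, 0.73, 0.21, 0.28, 0.12 and 0.03 in this order, so some were near 0. At LOC119905516, 3 of 5 transcripts were tested. The minimum of 5 was chosen with the values known. The 1 was tmem65, a transmembrane protein gene, where 3 of 5 transcripts were tested, with log2 fold changes from -4.83 to -2.07 beside 0.38 for the host. Heat and control libraries overlapped in each of these 3, and their edgeR adjusted p ran from 0.342 to 0.555.

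LOC119903097, chosen after its values were seen, was a host with transcripts on both sides. The host stood at 103, 152 and 111 CPM in heat and at 58.2, 63.1 and 72.1 CPM in control, a log2 fold change of 0.92 with an edgeR adjusted p of 0.142. Of its 8 transcripts 7 were tested, with log2 fold changes from -2.48 to 3.68. MSTRG.751.31 stood at 14.2, 18.4 and 21.2 CPM in heat and at 1.63, 2.45 and 0 CPM in control, a log2 fold change of 3.68 ± 0.90 (SE), edgeR adjusted p = 0.121. MSTRG.757.4 stood at 4.16, 2.74 and 5.77 CPM in heat and at 4.93, 12.3 and 16.2 CPM in control, a log2 fold change of -1.40 ± 0.50 (SE), edgeR adjusted p = 0.266. The first had heat libraries above all control libraries, and the groups of the second overlapped. MSTRG.757.3 covers nearly the same bases as MSTRG.757.4 (4778948 to 4781809 against 4778982 to 4781830). Its log2 fold change was 0.38 ± 0.72 (SE), so the sign differed between these nearly coextensive transcripts.

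Isoforms of 1 locus differed in share between libraries of a group. The assembled gene MSTRG.25006 (NW_024041373.1) held 17 of the transcripts, all over si:zfos-1056e6.1, an uncharacterised protein gene listed at 0 in every library. It held 7 of the 8 transcripts with the highest mean CPM, the other being MSTRG.25209.1 below. Its sum was 76240, 15922 and 28477 CPM in heat and 16626, 21459 and 31802 CPM in control, so the groups overlapped. MSTRG.25006.5 made up 0.0407%, 16.0% and 48.3% of this sum in the heat libraries and 33.2%, 0.685% and 54.1% in the control libraries. MSTRG.25006.2 made up 46.8%, 8.53% and 12.5% in heat and 28.2%, 10.9% and 0.000777% in control. MSTRG.25006.25, chosen after its values were seen, was counted only in control replicate 3, at 2453 CPM, and MSTRG.25006.3 stood at 5452 CPM in control replicate 2 and at most 92.1 CPM elsewhere. MSTRG.25006.3, MSTRG.25006.4 and MSTRG.25006.5 all run from 8197566 to 8226525. Such isoforms can share reads, and how shared reads were split among them was not tested.

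**Figure D5:**
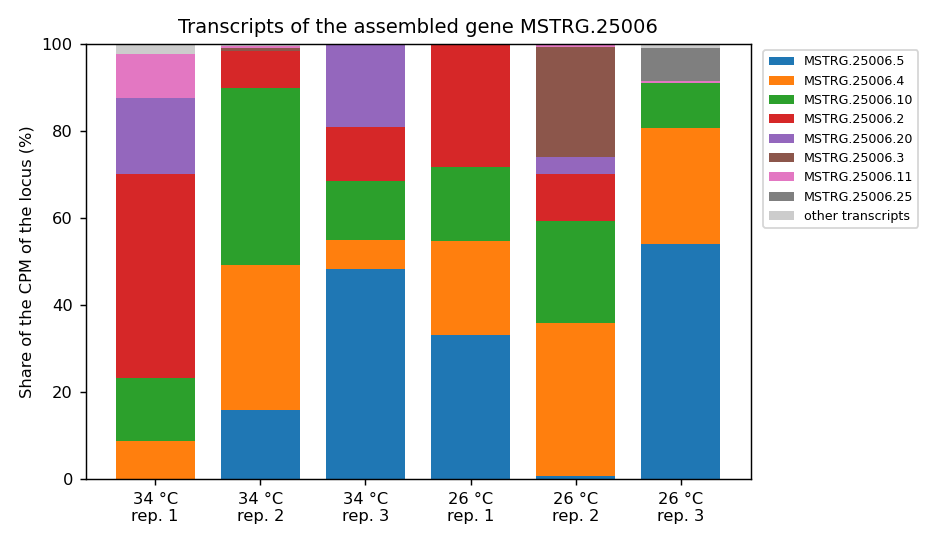
Share of the summed CPM of the assembled gene MSTRG.25006 (vertical axis, in percent) taken by each of its 8 most abundant transcripts and by the others, in the 3 libraries at 34 °C (left) and the 3 at 26 °C (right). The share of MSTRG.25006.5 runs over 0.0407% to 48.3% at 34 °C and 0.685% to 54.1% at 26 °C.

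Some single isoforms of MSTRG.25006 had large errors. MSTRG.25006.2 had a log2 fold change of 2.53 ± 2.1 (SE) and MSTRG.25006.5 one of -0.49 ± 1.78. MSTRG.25006.11 and MSTRG.25006.20 had 5.43 ± 3.06 and 4.50 ± 3.44 (SE), with overlapping groups. Errors were smaller for MSTRG.25006.10 and MSTRG.25006.4, at 0.94 ± 0.55 and -0.49 ± 0.62 (SE), both counted in all 6 libraries with overlapping groups. With counts summed per assembled gene, 784 loci with such transcripts were tested and 0 passed the edgeR threshold, beside 0.0% of all 1354 lncRNA loci tested. At an unadjusted p under 0.05 there were 98 (12.5%), beside a background of 14.8%. MSTRG.25209.1, the highest per length at a mean of 20239 TPM, contains mcph1 (microcephalin, a DNA damage response protein) and 8 other genes. It stood at 10466, 5204 and 4275 CPM in heat and at 4484, 4550 and 6495 CPM in control, overlapping groups.

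All 1070 transcripts together summed to 99866, 28217 and 40117 CPM in heat and to 25756, 33473 and 46664 CPM in control. The groups overlapped, and heat replicate 1 stood far above the rest. The log2 ratio of the means was 0.67, and without heat replicate 1 it was -0.05. Without MSTRG.25006 the sums were 23626, 12294 and 11640 CPM in heat and 9129, 12014 and 14862 CPM in control. The 4 transcripts over ribosomal RNA genes summed to 3671, 565 and 860 CPM in heat and 208, 474 and 1145 CPM in control, again highest in heat replicate 1.

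Hosts of immune function carried 67 transcripts over 38 genes, of which 60 were tested. Under edgeR 0 passed the adjusted threshold, 5 were higher (8.33%) and 2 lower (3.33%) in heat at an unadjusted p under 0.05, and the median log2 fold change was 0.13. These shares lay under the 9.57% and 4.9% of all lncRNA transcripts. The 7 are named after their values were seen. Of the higher ones, besides MSTRG.19742.9 and MSTRG.2117.2 above, MSTRG.2110.7 and MSTRG.2110.26 over LOC119914011 had log2 fold changes of 1.71 and 1.43, and MSTRG.19700.2, 1 of 5 tested over the NLRC3-like LOC119909370, had 2.48. The 8 transcripts over LOC119897314, a further gene of the NLR family, ranged from -1.30 to 1.84, with 0 at an unadjusted p under 0.05 (edgeR). The lower ones were MSTRG.20110.1 over LOC119912877, an interferon-induced very large GTPase 1-like gene, at -2.0, and MSTRG.24528.1 over LOC119915884, an MHC class II alpha chain-like gene that presents antigen, at -1.71. The 1 macrophage marker found, of 3 symbols, stood at 7.15, 6.90 and 5.97 CPM in heat and 8.84, 11.8 and 11.6 CPM in control, without overlap. The T cell and B cell markers were highest in control replicate 1, and the part of any of these in the values was not tested.

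MSTRG.20110.1 stood at 8.31, 4.04 and 4.11 CPM in heat and at 7.72, 27.9 and 29.7 CPM in control. Heat replicate 1 lay above control replicate 1, so the groups overlapped. Its host stood at 60.3, 44.3 and 63.6 CPM in heat and at 315, 154 and 131 CPM in control, without overlap. The 2 most abundant immune-host transcripts, MSTRG.29520.2 and MSTRG.29520.3 over the MHC class I-like LOC119884279, had log2 fold changes of -0.36 and -1.86, and both were highest in control replicate 1, at 365 and 364 CPM. Without that library their log2 fold changes were 0.46 and -0.01.

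Of the 20 transcripts over antigen receptor segments, 17 were tested, 4 above and 13 below 0, with a median log2 fold change of -0.22 and 1 at an unadjusted p under 0.05 (5.88%, background 14.5%). That transcript, MSTRG.29188.2, chosen after its values were seen, stood at 9.61, 9.81 and 9.81 CPM in heat and at 36.1, 33.7 and 13.5 CPM in control, a log2 fold change of -1.51 ± 0.39 (SE). Its host, LOC119883976, stood at 47.2, 6.72 and 1.03 CPM in heat and at 36.7, 0 and 0 CPM in control. The host's groups overlapped, with a log2 fold change of 0.55 ± 1.94 (SE). Transcript and host differed in change by -5.69 ± 3.54 (SE), an edgeR unadjusted p of 0.151. The single B cell marker found stood at 6.89, 6.54 and 5.90 CPM in heat and 12.7, 6.19 and 5.35 CPM in control. The part of this marker in the value of MSTRG.29188.2 was not tested.

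The remaining host groups were small. RNA splicing and binding genes hosted 6 transcripts over 5 hosts, all 6 tested and above 0 with a median of 0.60, and 0 at an unadjusted p under 0.05. Among them MSTRG.11285.25, within the splicing factor gene puf60a, stood at 46.4, 72.6 and 62.4 CPM in heat and at 7.51, 41.9 and 35.1 CPM in control. The groups did not overlap, and the log2 fold change was 1.11, beside 1.34 for puf60a (edgeR adjusted p of 0.423 and 0.0896). MSTRG.11285.23 of the same gene had 0.40 ± 1.56 (SE), with 0 counts in heat replicate 1 and control replicate 2. With 1 library left out it ranged from -0.51 to 2.70, so its sign was not stable.

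Muscle and matrix genes hosted 13 transcripts, 6 above and 7 below 0, with a median of -0.04. Named by abundance there, MSTRG.9941.1 contains the integrin gene LOC119901714 and had a log2 fold change of -0.04, which ranged from -0.29 to 0.20 with 1 library left out, and MSTRG.29038.1, within LOC119882558 of a phosphatase that the list took in through the word integrin, had 0.93. Circadian clock genes hosted 4, of which 3 were tested and lay below 0, namely MSTRG.38949.1 at cry1b above and MSTRG.38567.7 and MSTRG.38567.8 within the nuclear receptor gene roraa, at -0.10 and -1.05. With 1 library left out MSTRG.38567.7 ranged from -0.42 to 0.20, on both sides of 0, and MSTRG.38567.8 from -1.43 to -0.38. Heat shock and co-chaperone genes hosted 1, MSTRG.25977.3 within dnajc2, at 0.63 with overlapping groups. Glucocorticoid-responsive genes hosted 1, MSTRG.33149.1 within the glucocorticoid receptor gene nr3c1, which did not pass the count filter, at 3, 4 and 6 counts in heat and 65, 7 and 8 counts in control. Unfolded protein response genes hosted 0.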

How the data were processed

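The authors deposited whole-number counts and TPM values for each feature and library in tables of genes and of lncRNA transcripts, per the file headers. StringTie 1.3.3, HISAT2 2.1.0 and DESeq were used, per the submitters' processing notes, which give no roles. Their genome build was not given in the sources used here. Positions are those of the deposited tables, and 33186 of 33187 genes matched by symbol to RefSeq assembly ASM1485139v1 had the same start and end there. RefSeq was used for biotypes.

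Samples were grouped by their labels. The 2488 assembled genes of the gene table, whose counts equal the summed lncRNA counts in each library, were left out. The other 35854 genes and all 3399 lncRNA transcripts entered 1 fit in edgeR 4.0.16 (R 4.3.3; filterByExpr with minimum count 10 and minimum total 15, TMM, quasi-likelihood F test), adjusted by Benjamini-Hochberg within each class at 0.05. CPM use TMM-scaled library sizes, and total counts of 8244328 to 28822509 per library set their precision. Pairs were tested in edgeR on the 12 counts of transcript and host with a factor per library. The differences given come from this fit and need not equal the gap between the separate log2 fold changes. SEs come from the F statistics. Exon length is the count divided by TPM, taken where a library held at least 50 counts. It was scaled per library at the upper edge of count over TPM per base of gene span, among well-counted annotated genes. Genes at that edge were assumed to have no introns, which was not checked. Exon length differed between libraries by a median of 0.118%, which does not check its absolute scale.

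Alternatives were DESeq2 1.42.0, limma 3.58.1 on log2 TPM, other scalings and filters, a replicate block, other member rules and each library left out. A limma fit was planned for FPKM or TPM, and the tables hold TPM. Locus sums and robust dispersion were added after seeing the data. Named transcripts are the 10 with the smallest p at a mean of at least 1 CPM, those on called hosts, the 8 most abundant, and up to 2 of each host list by abundance; others are said to be chosen after their values were seen. The members, lists and named transcripts were chosen with earlier results of these data known. The scripts were tested on simulated data.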

Additional observations from a re-analysis of the deposited data

How the results depend on the processing

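The count of changed transcripts was 0 in edgeR under RLE and upper-quartile scaling, no filter, the lncRNA table alone, robust dispersion, locus sums, a half-span overlap and a minimum of 200 counts. It was 52 of 957 with DESeq2. With limma it was 12 of 1069 on log2(TPM + 1) and 1 of 1069 on log2(TPM + 0.1). It was 0 to 18 with 1 library left out: 18 without control replicate 1, 1 without control replicate 2 or heat replicate 2 each, and 0 otherwise. The count of changed hosts (6 of 695) was 53 of 695 with DESeq2 and 0 to 78 with 1 library left out. With limma it was 3 of 698 on log2(TPM + 1) and 0 of 698 on log2(TPM + 0.1). The limma fits tested another set of features than edgeR. Their shares over all lncRNA transcripts and genes are not given here, so these limma counts have no background beside them. With a replicate block the hosts called were 0 and the transcripts called 0. Whether replicate numbers pair the samples was not settled. Deviations of same-numbered libraries had correlations of -0.01, -0.01 and 0.04, which with 3 libraries a group cannot show that samples were unpaired. The count of same-sign pairs (589) was 331 of 495 at a minimum of 200 counts. With 1 library left out it was 591 to 646, of 961 to 980 pairs, or 60.9% to 67.1% beside 64.4% with all libraries. No pair differed under any alternative run (0 in each). The summed log2 ratio ranged from -0.05 to 0.99 with 1 library left out. With 1 library left out, the log2 fold change of MSTRG.38949.1 (-0.11) ranged from -0.29 to 0.28, above 0 without control replicate 2, and that of MSTRG.9177.25 (-0.0029) from -0.74 to 0.53, at 0.48 without control replicate 1, 0.25 without control replicate 3 and 0.53 without heat replicate 1. That of MSTRG.9177.25 was 0.026 with RLE, 0.052 with upper quartile and 0.038 with the replicate block. The cause was not tested.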
